A study of Homo sapiens with 4 samples.

Results

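The complement components and regulators described here are 36 protein-coding genes, chosen by gene name from the 58302 genes listed for each library. They were grouped by role into 5 genes of the classical pathway, 6 of the lectin pathway, 4 for C3 and the alternative pathway, 7 of the terminal pathway, 6 soluble inhibitors, 4 factor H-related genes, 3 membrane inhibitors and the mitochondrial C1q-binding protein C1QBP. The expression values come from mRNA-seq of HepG2, a human hepatocellular carcinoma cell line that is wild type in the labels. HepG2 cells were treated with melatonin at 1 mM or with its solvent DMSO for 24 h or 48 h, and 1 library was sequenced for each of these 4 conditions. Without replicates the spread between cultures within a condition is unknown, no test of the treatment was made, and every interval given covers counting error only. Since these are bulk values of a cultured line, fewer cells with a transcript and less transcript per cell cannot be told apart.

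Complement is a cascade of plasma proteins that tags microbes and damaged cells for removal. The classical pathway starts when C1q binds antibody and activates the proteases C1r and C1s, which cleave C4 and C2. The lectin pathway uses mannose-binding lectin, ficolins and collectins with the MASP proteases for the same cleavages, and the alternative pathway amplifies C3 cleavage through factors B and D and properdin. All of them converge on C3 and then on C5, after which C6, C7, C8 and C9 assemble a pore in the target membrane. Hepatocytes make most of these proteins, while C1q comes mainly from macrophages and properdin from leukocytes.

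The reads on genes numbered between 21616676 and 23086025 per library. The level of 3 reads, the lowest level treated as seen, was an FPKM (fragments scaled to gene length and library size) between 0.135 and 0.163 for a gene of 1 kb. Of 9 hepatocyte and HepG2 markers ALB was the most abundant, at 2717 to 3343 FPKM, and TTR had 41.9 to 50.6 FPKM in 3 libraries and 256 with melatonin for 48 h. With melatonin for 48 h, 1 of the 9 was 2-fold lower and 1 was 2-fold higher, against 3.32% and 2.39% of all genes compared. The lower one was AFP, a fetal plasma protein, at 1902 FPKM with DMSO and 782 with melatonin (log2 fold change -1.28), and the higher one was TTR. The part of these differences in the complement values was not tested. The 6 macrophage markers summed to 0.380 to 1.20 FPKM, most of it from CD14 (0.239 to 1.10), and MARCO had 0 reads in each library. The 3 endothelial markers summed to 0.543 to 1.18 FPKM. The 5 stellate and fibroblast markers summed to 4.05 to 7.63 FPKM, nearly all from ACTA2 and PDGFRB, and COL3A1 and DCN had 0 reads. Mitochondrial genes took 9.77% to 20% of the reads, more at 24 h than at 48 h.

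Of the 36 genes, 25 reached an FPKM of 1 in at least 1 library and 22 did so in each library. The remaining 11 stayed below that level in every library. FCN2, CFHR2, CFHR3, CFHR4 and CFHR5 were listed at 0 with 0 reads in all 4 libraries. For these 5 genes 3 reads would have been an FPKM of at most 0.155, which is the value for FCN2 with DMSO for 24 h. The genes shown in the plot of levels therefore hold all 5 classical genes, all 6 soluble inhibitors and all 3 membrane inhibitors, but 3 of 6 lectin genes, 3 of 4 genes for C3 and the alternative pathway and 4 of 7 terminal genes. C3 was the most abundant member and made up 58.4% to 63.5% of the FPKM summed over all 36 genes.

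**Figure D1:**
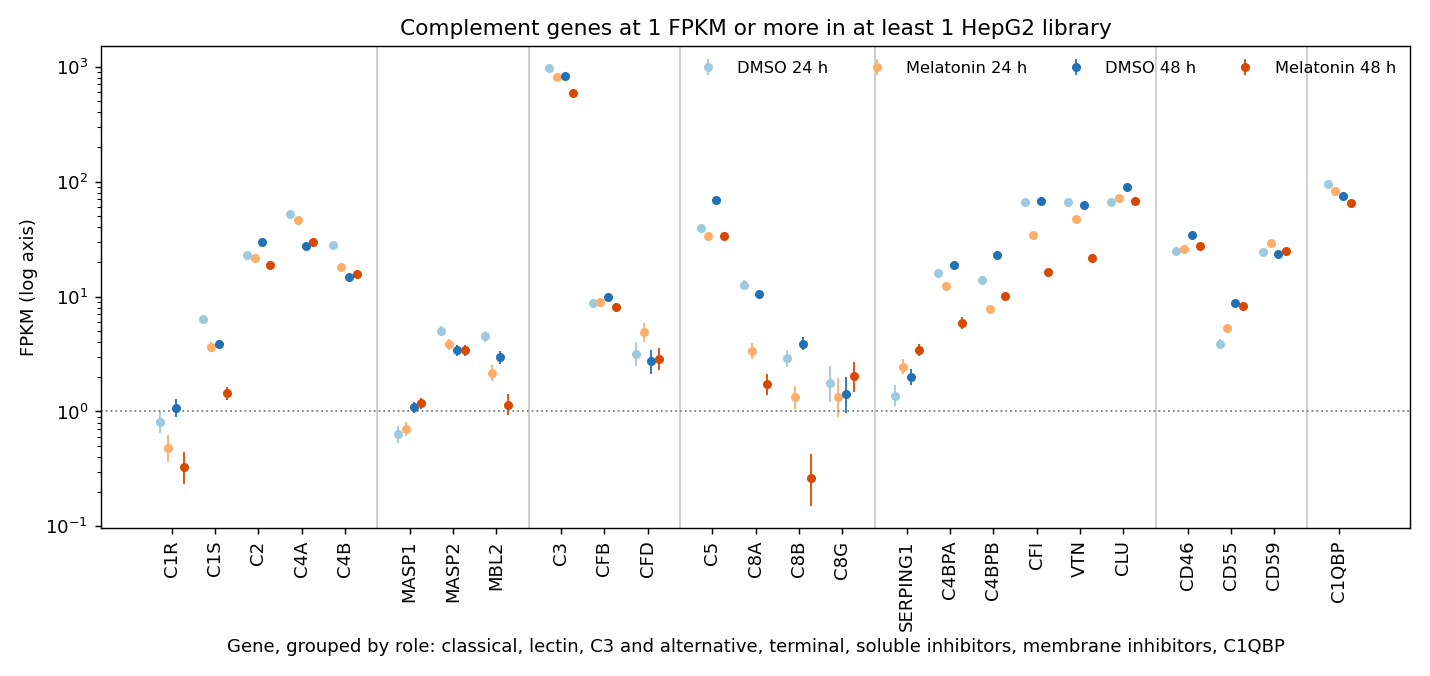
FPKM on a log axis (vertical) of the 25 complement genes that reached an FPKM of 1 (dotted line) in a library, grouped by role (horizontal), with 1 point per library and bars for the 95% exact Poisson interval of the reads. C3 lies far above the rest at 593 to 970 FPKM, and C8B with melatonin for 48 h is the lowest point at 0.264 FPKM.

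For each pair of libraries the difference was taken as the log2 of (FPKM + 1) in the first over (FPKM + 1) in the second, a scale on which low genes appear to move less than they do. A gene was compared when either library had an FPKM of at least 1, and it was counted as lower or higher when this value was at most -1 or at least 1, that is 2-fold. Plain FPKM ratios are given beside it with their 95% exact counting interval. These intervals are narrow for abundant genes and leave out the variation between cultures, so an interval away from 1 compares these libraries and not the treatments.

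With melatonin for 24 h, 1 of 23 complement genes compared, C8A, was at least 2-fold lower, and 0 were 2-fold higher. Among all 13582 genes compared, 2.93% were 2-fold lower and 1.42% were 2-fold higher, and among the 10481 protein-coding genes 0.439% and 0.191% were. The median log2 fold change of the 23 was -0.23, against 0.02 for all genes and 0.04 for protein-coding genes. Below 0 lay 16 of the 23, against 46.5% of all genes and 42.1% of protein-coding genes. With melatonin for 48 h, 7 of 25 genes were at least 2-fold lower and 0 were 2-fold higher. Here 3.32% of all 13805 genes were lower and 2.39% were higher, and 1.36% and 1.03% of the 10582 protein-coding genes were. The median of the 25 was -0.39, against -0.02 for all genes and -0.01 for protein-coding genes. Below 0 lay 17 of the 25, against 52.5% of all genes and 51.0% of protein-coding genes.

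The 7 genes 2-fold lower at 48 h were C5, C8A and C8B of the terminal pathway and CFI, VTN, C4BPA and C4BPB among the soluble inhibitors. The log2 fold change was lower at 48 h than at 24 h in 18 of the 23 genes compared at both times. All 7 were among the 18. They were chosen by their 48 h value, and only C8A was past the threshold at 24 h. For the others a lower value at 48 h therefore follows from the choice. By role, 3 of 4 terminal genes and 4 of 6 soluble inhibitors passed the threshold at 48 h. Among the classical genes 0 of 5 did, and 0 of 3 did among the lectin, the C3 and alternative and the membrane inhibitor genes. The counts for the classical and lectin genes rest on the pseudocount and the scale. With a pseudocount of 0.1, and also after rescaling to TPM, C1R, C1S and MBL2 were 2-fold lower at 48 h as well, which made 10 complement genes, where 6.64% and 7.59% of all genes compared were lower. On the FPKM scale, C1R and C8B entered the 48 h comparison through the DMSO library alone (1.08 and 3.88, against 0.326 and 0.264 with melatonin). Entering in this way favours a lower value. Of the 23 genes compared at both times, 12 were below 0 at both, 3 (CFD, SERPING1 and CD59) were above 0 at both, and 8 had opposite signs. The shares of all genes with these signs were not counted.

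**Figure D2:**
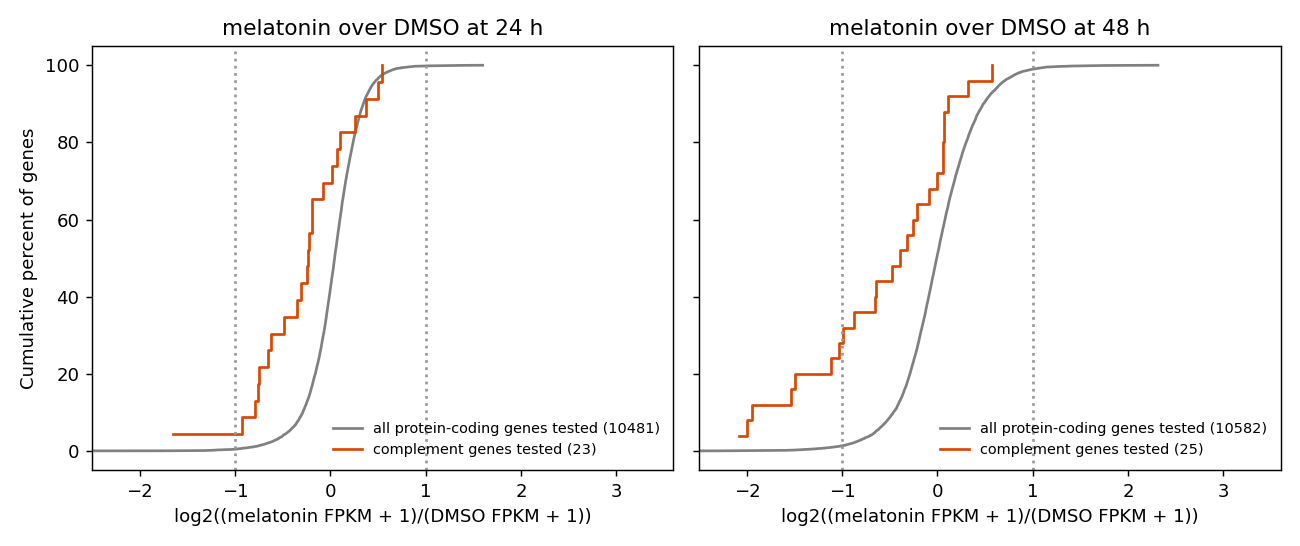
Cumulative percent of genes (vertical) by log2((melatonin FPKM + 1)/(DMSO FPKM + 1)) (horizontal) at 24 h and 48 h, for all protein-coding genes compared (grey) and for the complement genes compared (orange), with dotted lines at 2-fold. At 48 h, 7 of 25 complement genes lie at or below -1 against 1.36% of protein-coding genes.

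The bases before the start sites of the 3 genes with the lowest log2 fold changes at 48 h are shown because they carry the strongest reduction. Of the 36 genes 24 had an entry in the RefSeq promoter table (GRCh38.p14), and the 250 bases before each start were searched on both strands. The spellings were TTGCGCAA and TTGCNNAA for C/EBP, TTCNNNGAA for STAT factors, for NF-kB GGG and CC around 5 free bases, CAAAGTCCA for HNF4 and GAAA on both sides of 2 free bases for interferon-responsive factors, where TTGCNNAA includes every TTGCGCAA. The sequences run 5′ to 3′ on the strand of the gene, in lower case because none of these spellings was found in them.
C8A (chr1:56854547-56854796, forward strand): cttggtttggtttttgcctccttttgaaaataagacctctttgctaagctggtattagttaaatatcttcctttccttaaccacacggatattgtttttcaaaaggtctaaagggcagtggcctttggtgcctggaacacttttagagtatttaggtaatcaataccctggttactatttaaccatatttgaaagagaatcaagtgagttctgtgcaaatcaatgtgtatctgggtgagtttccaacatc
C8B (chr1:56966016-56966265, reverse strand): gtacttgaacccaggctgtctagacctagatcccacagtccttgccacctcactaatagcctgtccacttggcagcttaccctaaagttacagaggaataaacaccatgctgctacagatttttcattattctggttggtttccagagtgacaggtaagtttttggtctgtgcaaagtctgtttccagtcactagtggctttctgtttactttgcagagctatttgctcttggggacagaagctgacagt
CFI (chr4:109802000-109802249, reverse strand): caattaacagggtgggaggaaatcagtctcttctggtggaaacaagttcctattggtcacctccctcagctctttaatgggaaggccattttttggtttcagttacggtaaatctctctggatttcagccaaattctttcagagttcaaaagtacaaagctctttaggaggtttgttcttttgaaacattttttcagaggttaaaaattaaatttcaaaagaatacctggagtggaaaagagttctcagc

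The windows of C8A, C8B and CFI held none of these 6 spellings. The deposited spans of C8B and CFI, on the reverse strand, begin at 56966140 and 109802179. Part of each of their windows thus lies inside the gene as listed in the data. Some members had several windows, which can overlap. The STAT spelling was in 9 of the 37 windows of members and in 6.57% of all 35116 windows. It was found in 8 members, among them C4BPB and VTN, which were 2-fold lower at 48 h, and CFB and MASP2, which were not. The NF-kB spelling was found in 14 members, in 17 of the 37 member windows and in 54.4% of all windows. TTGCNNAA was found in 7 members, VTN included, in 9 of the 37 member windows and in 9.05% of all windows. TTGCGCAA (0.131% of all windows) and CAAAGTCCA (0.325%) were in no member window, and the interferon spelling (3.02%) was in that of CFB. A match is a match of letters only, and binding was not measured. SERPING1, C1S, C3, C4A, C4B, C8G, CLU, FCN3, CFHR2, CFHR3, CFHR4 and CFHR5 had no entry.

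C8 is the terminal component that first inserts into the target membrane, and it is built of an alpha, a beta and a gamma chain from 3 separate genes. C8A (ENSG00000157131, chromosome 1 of hg38 from 56854806 to 56918221) had an FPKM of 12.7 in the DMSO and 3.35 in the melatonin library at 24 h, and of 10.5 and 1.72 at 48 h. The DMSO library was higher by 3.79-fold (3.17 to 4.55) at 24 h and by 6.10-fold (4.87 to 7.71) at 48 h, from 549 and 160 reads and from 542 and 90 reads. It was the only member past the 2-fold threshold at both times, with log2 fold changes of -1.65 and -2.08. C8B (ENSG00000021852, chromosome 1 from 56929210 to 56966140) had an FPKM of 2.91 in the DMSO and 1.34 in the melatonin library at 24 h, and of 3.88 and 0.264 at 48 h. Its ratio at 48 h, from 232 and 16 reads, was a 14.7-fold lower level with melatonin (8.85 to 26.1), and at 24 h it was 2.18-fold lower (1.64 to 2.92). In both melatonin libraries these chains thus lay under both DMSO libraries.

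C8G (ENSG00000176919, chromosome 9 from 136945246 to 136946974), whose product is a lipocalin and no relative of the other two chains, had an FPKM of 1.76 and 1.35 at 24 h and of 1.42 and 2.02 at 48 h, each time with DMSO first. With only 28 to 46 reads the ratio of melatonin to DMSO was 0.768 (0.447 to 1.31) at 24 h and 1.42 (0.885 to 2.30) at 48 h, so a difference was not detectable at this depth. The FPKM of C8A over that of C8G went from 7.23 and 7.36 with DMSO to 2.48 and 0.85 with melatonin at the same times. C8A and C8B lie tail to tail on chromosome 1 with 10988 bp between them, while C8G is on another chromosome.

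C5, whose cleavage releases the inflammatory peptide C5a and starts pore assembly, lies on chromosome 9 from 120952335 to 121050276 (ENSG00000106804). Its FPKM was 39.6 in the DMSO and 33.7 in the melatonin library at 24 h, and 69.1 and 33.3, respectively, at 48 h. Between the melatonin libraries the ratio of 48 h to 24 h was 0.989 (0.949 to 1.03), whereas the DMSO library of 48 h stood 1.75-fold (1.69 to 1.81) above that of 24 h. The log2 fold change of -1.03 at 48 h was just past the threshold, and C5 was no longer counted when libraries were scaled by their summed reads or by the reads outside mitochondrial genes. The other terminal genes were low. C7 had 35 and 45 reads at 24 h and 93 and 30 at 48 h (DMSO, then melatonin), C6 had 21 and 7 and then 19 and 3 reads, and C9, which forms the wall of the pore, had 2 reads with DMSO for 24 h and 0 in the other libraries. For C6 and C7 no FPKM reached 1, and the ratio of melatonin to DMSO at 48 h was 0.156 (0.0296 to 0.530) for C6 and 0.319 (0.204 to 0.485) for C7. C9 shares its span with DAB2, which lies on the same strand. Summed over the 7 terminal genes, the FPKM was 57.6 and 40.2 at 24 h and 85.9 and 37.6 at 48 h with DMSO and melatonin, most of it from C5.

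**Figure D3:**
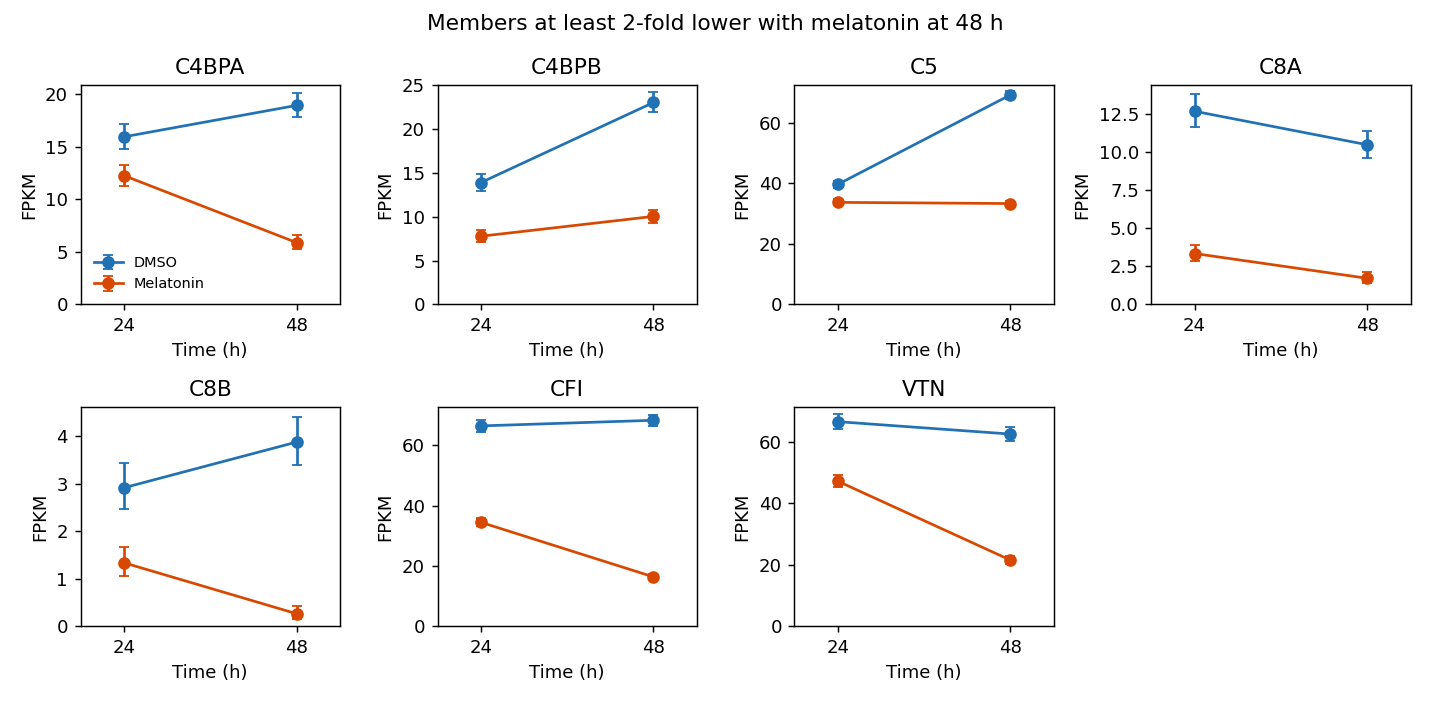
FPKM (vertical, from 0) at 24 h and 48 h (horizontal) of the 7 complement genes at least 2-fold lower with melatonin at 48 h, with DMSO in blue and melatonin in orange. Each point is 1 library of a separate culture with its 95% exact Poisson interval, and the lines only join libraries of the same treatment. CFI with DMSO stays near 66.5 to 68.3 FPKM while melatonin lies at 34.5 and 16.4, and for C5 the high point is DMSO at 48 h.

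Among the soluble inhibitors, factor I is the protease that destroys C3b and C4b with the help of cofactors. CFI (ENSG00000205403, chromosome 4 from 109740694 to 109802179) had an FPKM of 66.5 and 34.5 with DMSO and melatonin at 24 h, and of 68.3 and 16.4 at 48 h. The level with melatonin was 1.93-fold lower (1.84 to 2.02) at 24 h and 4.17-fold lower (3.94 to 4.43) at 48 h. The DMSO libraries of both times differed by a ratio of 1.03 (0.989 to 1.07), and the melatonin library of 48 h was 2.11-fold (1.98 to 2.25) below that of 24 h. VTN encodes vitronectin, a plasma and matrix protein that blocks the insertion of the terminal complex. VTN (ENSG00000109072, chromosome 17 from 28367276 to 28373091) had an FPKM of 66.6 and 47.3 at 24 h and of 62.6 and 21.5 at 48 h with DMSO and melatonin, which is 1.41-fold (1.33 to 1.49) and 2.91-fold (2.72 to 3.11) lower. SARM1 on the opposite strand spans all of VTN and had 26 to 70 reads, against 1161 to 3332 for VTN.

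C4b-binding protein, a cofactor of factor I against C4b, is made of alpha chains and a beta chain whose genes lie in tandem on chromosome 1 with 4.27 kb between them. C4BPA (ENSG00000123838, from 207104262 to 207144972) had an FPKM of 15.9 and 12.3 at 24 h and of 18.9 and 5.89 at 48 h with DMSO and melatonin. C4BPB (ENSG00000123843, from 207088842 to 207099993) had an FPKM of 13.9 and 7.78 at 24 h and of 23.0 and 10.0 at 48 h. For C4BPA the level with melatonin was 1.30-fold (1.16 to 1.45) and 3.22-fold (2.83 to 3.66) lower, and for C4BPB it was 1.79-fold (1.6 to 2.00) and 2.29-fold (2.1 to 2.51) lower. C4BPB was the more reduced chain at 24 h and C4BPA at 48 h, and their intervals did not overlap at either time. The FPKM of C4BPA over that of C4BPB was 1.15 (DMSO) and 1.58 (melatonin) at 24 h, and 0.822 and 0.586 at 48 h.

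The other soluble inhibitors did not pass the threshold. SERPING1 (chromosome 11 from 57597387 to 57614853), which encodes the C1 inhibitor, was the member with the highest log2 fold change at both times, 0.54 and 0.57. Its FPKM was 1.38 in the DMSO and 2.45 in the melatonin library at 24 h, and 2.00 and 3.45 at 48 h, a ratio of 1.78 (1.38 to 2.32) and of 1.73 (1.41 to 2.11). CLU encodes clusterin, a chaperone that holds the terminal complex in solution, and had an FPKM of 67.0 and 72.0 at 24 h and of 89.2 and 67.7 at 48 h. Its ratio of melatonin to DMSO was 1.07 (1.04 to 1.11) and then 0.759 (0.739 to 0.779). Summed over the 6 soluble inhibitors, the FPKM was 231 and 176 at 24 h and 264 and 125 at 48 h with DMSO and melatonin.

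The membrane inhibitors protect the cell's own surface. CD46 is a cofactor of factor I, CD55 speeds the decay of the convertases, and CD59 blocks C9. CD46 had an FPKM of 24.9 and 26.1 at 24 h and of 34.3 and 27.3 at 48 h with DMSO and melatonin. CD55 had an FPKM of 3.84 and 5.27 at 24 h and of 8.77 and 8.22 at 48 h. CD59 had an FPKM of 24.3 and 29.2 at 24 h and of 23.5 and 24.8 at 48 h. Their log2 fold changes lay between 0.07 and 0.37 at 24 h and between -0.32 and 0.07 at 48 h. CD55 and CD46 lie on chromosome 1 downstream of C4BPA, with gaps of 177 kb from C4BPA to CD55 and of 365 kb from CD55 to CD46. The sum of the 3 genes was 53.0 and 60.6 FPKM at 24 h and 66.6 and 60.3 at 48 h. With DMSO, CFI was expressed at 2.67 times the FPKM of CD46 at 24 h and 1.99 times at 48 h, and with melatonin at 1.32 and 0.6 times.

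**Figure D4:**
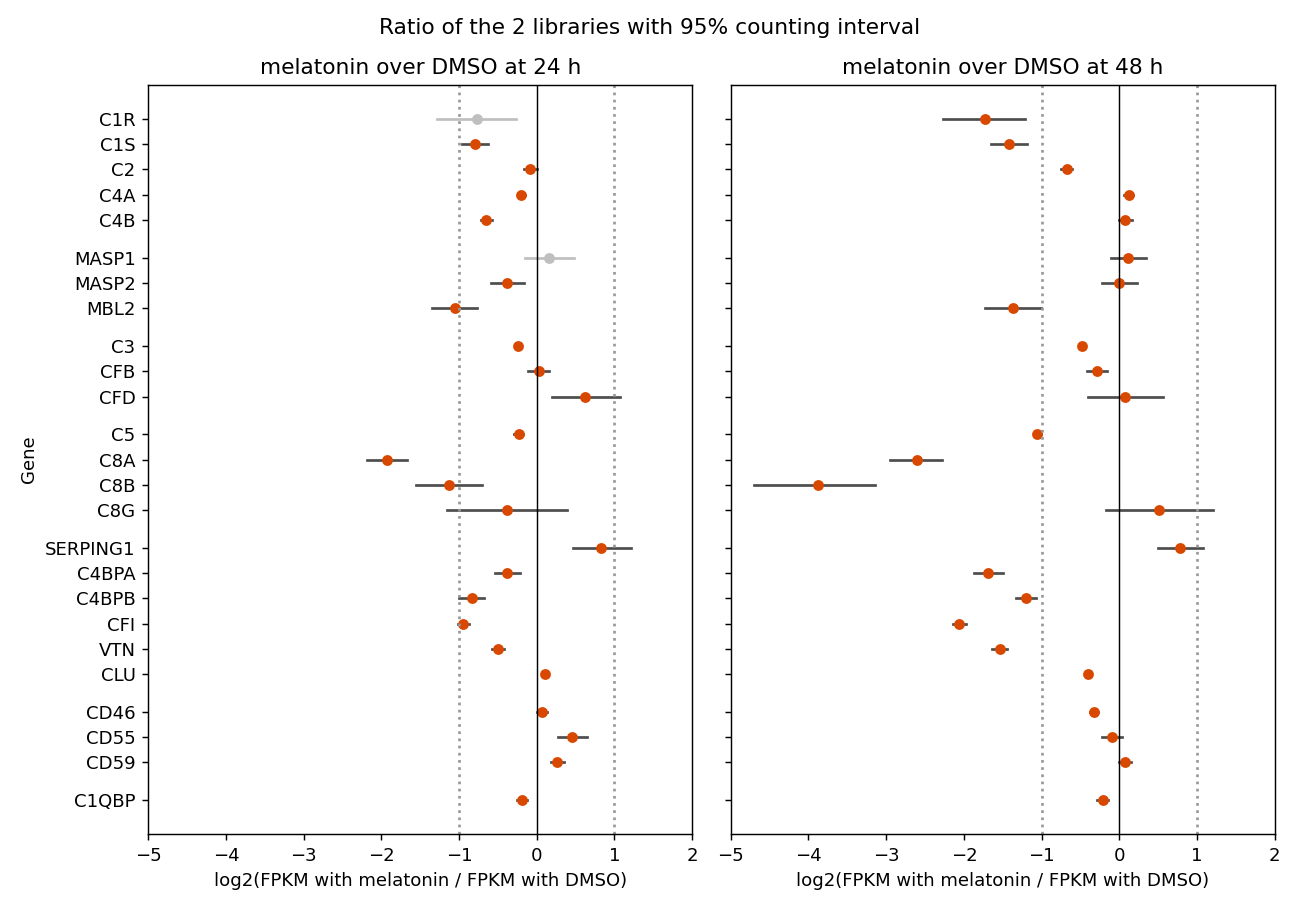
The log2 ratio of FPKM with melatonin to FPKM with DMSO (horizontal) for the 25 complement genes at 24 h and 48 h, without a pseudocount, with bars for the 95% exact counting interval and dotted lines at 2-fold. Grey points are genes under an FPKM of 1 in both libraries. C8B at 48 h lies farthest to the left, from 232 and 16 reads, and SERPING1 lies to the right at both times.

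In the classical pathway, C1S encodes the protease that cleaves C4 and C2. C1S (ENSG00000182326, chromosome 12 from 6988259 to 7071032) had an FPKM of 6.32 and 3.64 at 24 h and of 3.84 and 1.44 at 48 h with DMSO and melatonin. The ratio was 0.576 (0.512 to 0.647) and 0.374 (0.317 to 0.440), and the log2 fold change of -0.99 at 48 h was the value just short of the threshold. C1R, the partner that activates C1s, had an FPKM of 0.816 and 0.478 at 24 h and of 1.08 and 0.326 at 48 h, with a ratio at 48 h of 0.302 (0.208 to 0.432) from 134 and 41 reads. The value of C1R is uncertain, since C1RL on the same strand overlaps it over 3021 bp and had 720 to 978 reads. LPCAT3 on the opposite strand overlaps C1S over 30252 bp and had 538 to 1005 reads, against 206 to 750 for C1S. EMG1 on the same strand overlaps C1S over 9170 bp and had 5 to 19 reads. Whether reads of these genes entered the value of C1S was not tested.

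C2, the protease part of the classical C3 convertase, had an FPKM of 23.1 and 21.8 at 24 h and of 29.9 and 18.7 at 48 h, a ratio of 0.624 (0.592 to 0.658) at 48 h. C4A had an FPKM of 52.6 and 45.9 at 24 h and of 27.3 and 29.7 at 48 h, and C4B one of 28.1 and 17.9 and of 14.9 and 15.7. C4A and C4B are near-identical neighbours on chromosome 6 with 12.1 kb between them, so reads may have been divided between them in the counting, and their sum is the firmer value. The sum was 80.7 and 63.8 FPKM at 24 h and 42.2 and 45.4 at 48 h, with log2 fold changes for melatonin of -0.33 and 0.10. Between the DMSO libraries both genes stood lower at 48 h, by 1.92-fold (1.85 to 2.00) for C4A and by 1.89-fold (1.80 to 1.99) for C4B.

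C1q itself was not among the transcripts of these cells. C1QA, C1QB and C1QC, which encode its chains and belong to a wider list of 22 other complement genes, had 0 reads in each library. C1QBP, which binds the heads of C1q but is mainly a protein of the mitochondrial matrix, had an FPKM of 94.5 and 82.8 at 24 h and of 74.9 and 64.5 at 48 h with DMSO and melatonin. Its ratio was 0.876 (0.839 to 0.916) and 0.861 (0.822 to 0.902). DHX33 overlaps C1QBP on the same strand over 7919 bp and had 1639 to 2086 reads.

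The lectin pathway was sparse. MBL2, which encodes mannose-binding lectin, had an FPKM of 4.50 and 2.17 at 24 h and of 2.95 and 1.15 at 48 h with DMSO and melatonin, a plain ratio of 0.482 (0.394 to 0.587) and 0.389 (0.302 to 0.498). On the log2(FPKM + 1) scale this was -0.80 and -0.88, short of the threshold at both times. MASP2, the protease that cleaves C4 and C2, had an FPKM of 5.01 and 3.85 at 24 h and of 3.40 and 3.40 at 48 h. MASP1 had an FPKM of 0.633 and 0.708 at 24 h and of 1.09 and 1.18 at 48 h, and its melatonin to DMSO ratio at 48 h was 1.08 (0.926 to 1.26). COLEC11, a collectin, had 27 (DMSO) and 48 (melatonin) reads at 24 h and 44 and 49 at 48 h, and the ficolin FCN3 had 0 and 0 and then 1 and 2.

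C3 (ENSG00000125730, chromosome 19 from 6677704 to 6730562) had an FPKM of 970 in the DMSO and 818 in the melatonin library at 24 h, and of 826 and 593 at 48 h. The ratio of melatonin to DMSO was 0.843 (0.837 to 0.850) at 24 h and 0.717 (0.712 to 0.723) at 48 h, and both log2 fold changes, -0.25 and -0.48, stayed inside the threshold. CFB, the protease part of the alternative convertase, had an FPKM of 8.81 and 8.96 at 24 h and of 9.96 and 8.15 at 48 h. CFB and C2 are neighbours on the same strand of chromosome 6 whose listed spans overlap by 23 bp, and C2 was the more reduced at 48 h, at 0.624 against 0.818 (0.748 to 0.895). CFD, which encodes factor D, the protease that cuts factor B, had an FPKM of 3.16 and 4.88 at 24 h and of 2.72 and 2.87 at 48 h. CFP, which encodes properdin, had 0 (DMSO) and 5 (melatonin) reads at 24 h and 3 and 5 at 48 h.

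The libraries were also compared by time in culture. These comparisons use the same libraries as the ones above and are given side by side only. With DMSO, CD55 was the only one of 25 genes 2-fold higher at 48 h than at 24 h, with a log2 fold change of 1.01 and a plain ratio of 2.28 (2.03 to 2.57), and 0 were 2-fold lower. Of all 13854 genes compared, 3.50% were higher and 4.24% were lower. With melatonin, VTN (log2 fold change -1.10) and CFI (-1.03) were 2-fold lower at 48 h among 24 genes, and 0 were higher, where 1.71% of all 13489 genes were lower and 2.45% were higher. The median of the complement genes was 0.04 with DMSO and -0.22 with melatonin, against 0.004 and -0.04 for all genes. With DMSO the changes ran from -0.92 for C4A to 1.01 for CD55, and with melatonin from -1.10 for VTN to 0.56 for CD55. With libraries scaled by their summed reads neither VTN nor CFI passed the threshold in the melatonin comparison, and after rescaling to TPM C8B alone did.

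The 7 genes 2-fold lower at 48 h had a median GC content of 44.9% in their longest transcript, with a range from 39.6% to 59.5%, and the 18 other expressed members had one of 51.7%, with a range from 37.3% to 65.1%. The median gene length was 2729 bp for the 7 and 5552 bp for the 18. After the log2 fold changes were corrected for GC content and gene length the same 7 genes were 2-fold lower at 48 h and C8A alone at 24 h. All 7 also had at least 50 reads in 1 of the libraries compared.

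Other genes of the complement system were read from a list of 22, of which 5 were compared at 24 h and 6 at 48 h. Of these, 1 was 2-fold lower at 24 h, against 2.93% of all genes, and 2 were at 48 h, against 3.32%. The list had 0 genes 2-fold higher at either time, against 1.42% and 2.39% of all genes. CPB2, a carboxypeptidase that can trim C3a and C5a and also slows the lysis of fibrin, was 2-fold lower at both times, with log2 fold changes of -1.61 and -2.63. The other, CPN1, the catalytic chain of carboxypeptidase N, which inactivates the same peptides, had an FPKM of 15.6 and 11.4 at 24 h and of 17.6 and 6.99 at 48 h with DMSO and melatonin. CPN2, its regulatory chain, had an FPKM of 37.0 and 32.8 at 24 h and of 26.4 and 21.6 at 48 h. Of the receptors, C5AR1 for C5a had an FPKM of 0.517 and 0.819 at 24 h and of 2.81 and 1.54 at 48 h, and CR1 and CR2 had 0 reads.

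For the lists that follow, the shares of all genes compared were 2.93% lower and 1.42% higher at 24 h, and 3.32% and 2.39% at 48 h. Of 24 other proteins that the liver secretes, 2 of 22 were 2-fold lower at 24 h and 2 of 21 at 48 h (APOH and HPX at both times), with TTR 2-fold higher at 48 h and medians of -0.08 and -0.30. Of 11 acute phase proteins, 0 of 7 were 2-fold lower at 24 h and 4 of 6 were at 48 h (HP, ORM1, ORM2 and SERPINA3), with medians of -0.74 and -1.06. CRP and SAA1 had 0 reads in each library. Of 18 transcription factors and signalling genes known to act on liver plasma protein genes, 0 of 16 passed the threshold at 24 h. At 48 h, NR1H4, the bile acid receptor, was 2-fold lower and IL6R, a receptor chain for interleukin-6, was 2-fold higher, and the median was -0.25. NR1H4 had an FPKM of 12.4 and 5.84 at 24 h and of 14.3 and 4.33 at 48 h with DMSO and melatonin. CEBPB, a C/EBP transcription factor, had an FPKM of 54.8 and 73.5 and of 99.96 and 60.8. Whether any of these bears on the complement genes was not tested.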

How the data were processed

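Polyadenylated RNA of HepG2 cells was sequenced in 4 libraries, 1 for each condition. Per their methods, the authors aligned read pairs with MapSplice to hg38 and took expression from Cufflinks, while the submitters' processing notes list Bowtie2 2.0.6, TopHat2 2.0.9 and Cufflinks and Cuffdiff 2.1.1. The authors deposited FPKM per Ensembl gene and, as the other column used, the gene length in bp. The product of FPKM and length gave whole reads for 100% of nonzero values (within 0.02 reads, or 1e-05 of the count where that is more). These reads served for exact Poisson intervals and exact conditional intervals of ratios (95%), and for the floor of 3 reads. The library size implied by the FPKM was below the reads on genes in each library, by unequal amounts. It was 18357838 against 21616676 with DMSO for 24 h, and 22205042 against 22820651 with melatonin for 48 h. How the deposited library size was set is not given in the sources used here.

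Groups came from the labels. Fold changes used a pseudocount of 1, a minimum FPKM of 1 in either library and a 2-fold threshold. With 1 library per condition no p-value was computed. The members, role groups and gene lists were chosen with earlier results of these data known, and the 3 promoters printed were picked after the fold changes were seen. All 36 members are named, and of the other lists the genes past the threshold with melatonin and the most abundant where a level was needed. The C1q chains, CPN2, C5AR1, CR1, CR2, CRP, SAA1, MARCO, COL3A1, DCN and genes named for overlapping a member fall outside that rule and were chosen after their values were seen. A gene of the regulator list and a motif spelling are not reported here. Sequences came from RefSeq (GRCh38.p14), and GC content from GENCODE 44. The scripts were tested on simulated data. Python 3.11, numpy 2.4.6, pandas 2.3.3, scipy 1.17.1 and matplotlib 3.10.9 were used.

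The alternatives were a pseudocount of 0.1, no minimum FPKM, a minimum of 5, a 1.5-fold threshold, TPM, scaling by summed reads, centring on the median and protein-coding genes only. Added once the data had been seen were a filter at 50 reads, a library size without mitochondrial reads and a correction for GC content and length (linear and squared terms, least squares).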

Additional observations from a re-analysis of the deposited data

Results flagged for a closer look

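C4A, CLU and CD46 moved in opposite directions at 24 h and 48 h, with the counting interval of the melatonin to DMSO ratio away from 1 at both times. The ratio was 0.872 and then 1.09 for C4A, 1.07 and then 0.759 for CLU, and 1.05 and then 0.796 for CD46. None of these passed the 2-fold threshold, and with 1 library per condition the difference between the times was not tested. The directions held with TPM, when scaled by summed reads and without mitochondrial reads, where C4A at 24 h lay between 0.875 and 0.984. The value nearest 1, 0.984, was that with TPM. Whether the counting intervals stayed away from 1 on these scales was not tested. C4A shares near-identical sequence with C4B, whose ratio was 0.638 and then 1.06.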

How the results depend on the processing

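At 48 h C8A, C8B, CFI, VTN, C4BPA and C4BPB stayed 2-fold lower under each alternative except C8B under a minimum FPKM of 5, where it was not compared, and no complement gene was 2-fold higher with melatonin under any of them. Of 797 values computed under the alternatives, 717 moved by less than their counting interval or, for counts, by at most 1.5 times. With a pseudocount of 0.1, 3 genes were lower at 24 h (C8A, C8B and MBL2) and 10 were lower at 48 h (C1R, C1S and MBL2 beside the 7). Between the melatonin libraries of 24 h and 48 h 5 were lower. Of all genes compared, 6.13%, 6.64% and 3.34% were lower in the same comparisons. With a 1.5-fold threshold 7 complement genes were lower at 24 h, 11 at 48 h and 8 between the melatonin libraries. Of all genes compared, 7.53%, 10.0% and 6.05% were lower there. Between the DMSO libraries 3 of 25 were lower and 3 higher, against 12.6% and 11.2% of all genes. With no minimum FPKM, which brings in all 36 genes, the median was -0.0662 at 24 h and -0.14 at 48 h. TPM moved the median of all genes to 0.17 at 24 h, 0.46 between the DMSO libraries and 0.23 between the melatonin libraries. The complement medians there were -0.0583, 0.58 and 0.0360, the last of opposite sign to the main value of -0.22 but below the median of all genes. With TPM 3 of 27 complement genes were higher between the DMSO libraries, against 16.4% of all genes. Between the melatonin libraries 1 of 27 was lower, against 3.19%. At 48 h 10 genes were lower with TPM, the same as with the pseudocount of 0.1. Scaled by summed reads, the median between the DMSO libraries was 0.20, where that of all genes was 0.14, and 0 genes were lower between the melatonin libraries. Centring on the median, and leaving out mitochondrial reads, each left 1 (VTN). Of all genes 2-fold different at 24 h 32.7% were higher, against 45.8% with TPM and 47.9% after the correction for GC content and length, and between the DMSO libraries 45.2% were, against 80.7% for TPM and 61.8% when scaled by summed reads. Between the melatonin libraries 58.9% were, against 72.9% for TPM. The depth limits C8G and the genes under an FPKM of 1, of which C6, C7, C9, CFP and FCN3 had between 0 and 93 reads.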
